A study of Mus musculus with 8 samples.

Results

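The genes described here encode the folding machinery of the endoplasmic reticulum (ER), the sensors that monitor it, and the proteins that remove misfolded chains from it. They were chosen by symbol: of 35 listed genes, 34 had an entry of exactly that symbol among the 41730 entries of the count table, and Ero1l was taken from the entry Ero1a, for which RefSeq gives Ero1l as a synonym. The genes fall into 12 chaperones and co-chaperones, 5 disulfide isomerases and their oxidase, 4 sensors and transcription factors, and 14 genes of degradation and translocation. The RGX-104 group was 4 libraries (replicates 5 to 8) of OT-I CD8+ T cells whose co-cultures with bone marrow-derived dendritic cells (BMDCs) held 2 µM RGX-104, a compound that activates LXR, the oxysterol-sensing liver X receptors. They were set against 4 control libraries (replicates 1 to 4) whose co-cultures held DMSO, the solvent. In both groups the T cells carried the OT-I transgenic receptor, the BMDCs had been pulsed with its peptide SIINFEKL, and the T cells were purified by FACS before RNA isolation. Mouse age, the length of the co-culture and whether libraries came from separate cultures are not given in the labels, so p-values measure only the spread between these libraries, which may be technical.

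When unfolded proteins gather in the ER, 3 sensors respond: IRE1 (encoded by Ern1) splices the mRNA of Xbp1, ATF6 is cut to release a transcription factor, and PERK (Eif2ak3) slows translation and raises ATF4. XBP1 and cleaved ATF6 switch on chaperones and degradation genes, in many cases through a promoter element named ERSE. ATF4 is also raised by amino acid shortage, without the other arms. Activated CD8 T cells make large amounts of secreted and membrane proteins, and the IRE1 and XBP1 arm is known to be used in their effector differentiation. Read counts per gene show neither the splicing of Xbp1 nor the cleavage of ATF6.

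Total counts were 13144704 to 14947537 in RGX-104 libraries and 14867824 to 15966972 in control libraries. The agonist's mark was present: Abca1, a cholesterol exporter and LXR target, was at 85.2 ± 5.42 CPM in RGX-104 and 8.13 ± 0.569 CPM in control libraries (SD, n = 4 each; edgeR adjusted p = 1.24e-15). All later values after ± in CPM are SDs over the same 4 libraries a group. CPM here are counts relative to library size (counts per 1000000), scaled by TMM, and levels of different genes are not compared. Of the 35 genes, 33 had enough counts to be tested with edgeR. Atf6b was listed at 0 in every library, an entry whose symbol recurs with numbers appended, so this was not read as lack of expression. Derl3, a derlin-family gene, had between 1 and 25 counts per library and was not tested.

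Of the 33 tested genes, 2 were higher in RGX-104 libraries (edgeR adjusted p under 0.05), the chaperone genes Calr and Sdf2l1, where 0.888% of all 12162 genes tested were called higher. Another 2 were lower, the degradation genes Herpud1 and Sel1l, where 1.78% of all genes tested were called lower. Herpud1 in RGX-104 libraries was at 0.526-fold of its control level, the largest change of these 4, while Sel1l was at 0.822-fold, Calr at 1.14-fold and Sdf2l1 at 1.26-fold. An unadjusted p under 0.05 was found for 11 of the 33 genes and for 1679 of all 12162 genes tested. The median log2 fold change was 0.043 over the 33 genes and 0.0028 over all genes tested. In bulk RNA a lower level can come from less RNA per cell or from fewer cells of a kind, and these cannot be told apart.

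Among degradation genes, Herpud1 stood out. Its product, HERP, is a membrane protein that gathers the ubiquitin ligase complex at which misfolded proteins leave the ER. The gene lies on the forward strand of chromosome 8, 94386429 to 94395371 (GRCm38.p6), and none of its exons overlapped an exon of another gene by 100 bp or more. Herpud1 had 52.3, 58.5, 62.9 and 54.4 CPM in RGX-104 replicates 5 to 8, against 97.2, 111, 114 and 112 CPM in control replicates 1 to 4. The groups did not overlap, and control replicate 1 lay below the other control libraries. The log2 fold change was -0.93 ± 0.08 (SE; edgeR adjusted p = 8.74e-08), with a 95% interval of -1.09 to -0.76.

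Herpud1 is known to respond both to the ER-specific arms and to ATF4, so promoters are shown with the elements of both. Each window holds 250 bases before and 50 after the start site in RefSeq's GRCm38.p6, read 5′ to 3′ along the gene. Capitals mark matches on either strand to ERSE (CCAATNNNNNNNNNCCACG), ERSE-II (ATTGGNCCACG), the core TGACGTG of the XBP1 element, or a C/EBP-ATF element searched as TGATGNAAT and TGATGNAAC. Herpud1 (chr8:94386179-94386478, forward strand), Hspa5 (chr2:34771840-34772139, forward strand) and Calr (chr8:84846882-84847181, reverse strand) are shown because they were lower, not called and higher in RGX-104 libraries.
Herpud1: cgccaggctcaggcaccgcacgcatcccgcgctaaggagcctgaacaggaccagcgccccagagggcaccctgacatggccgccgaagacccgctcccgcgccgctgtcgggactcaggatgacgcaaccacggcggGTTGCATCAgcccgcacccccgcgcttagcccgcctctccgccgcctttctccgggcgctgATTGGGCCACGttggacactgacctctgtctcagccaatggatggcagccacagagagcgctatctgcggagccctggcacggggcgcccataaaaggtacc
Hspa5: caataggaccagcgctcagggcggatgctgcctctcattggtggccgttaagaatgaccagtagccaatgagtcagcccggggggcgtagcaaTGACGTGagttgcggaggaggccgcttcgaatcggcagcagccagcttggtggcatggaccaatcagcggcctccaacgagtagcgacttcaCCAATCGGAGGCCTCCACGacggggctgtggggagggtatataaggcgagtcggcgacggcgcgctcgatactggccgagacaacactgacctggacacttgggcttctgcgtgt
Calr: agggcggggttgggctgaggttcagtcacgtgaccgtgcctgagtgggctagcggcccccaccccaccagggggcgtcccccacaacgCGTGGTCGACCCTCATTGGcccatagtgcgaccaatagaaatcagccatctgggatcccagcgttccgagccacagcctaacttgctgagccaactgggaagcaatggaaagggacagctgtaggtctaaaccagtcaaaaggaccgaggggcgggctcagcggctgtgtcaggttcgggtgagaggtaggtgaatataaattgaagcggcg

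The Herpud1 window held an ERSE-II match from base -52 to -42 and a C/EBP-ATF match on the opposite strand from base -113 to -105, where 0 is the first transcribed base. Hspa5 held an ERSE from base -65 to -47 and the core from base -157 to -151, and Calr held an ERSE on the opposite strand from base -162 to -144. Of the 35 genes, 31 had promoter windows in the table, 32 windows in all, and Atf6, Derl1, Hyou1 and Manf had none. ERSE was found in 9 of the 32 windows (28.1%), against 0.119% of all 32851 windows. These 9 were Hspa5, Hsp90b1, Calr, Canx, Creld2, Dnajc3, Pdia6, Syvn1 and Derl3. ERSE-II was in 2 (6.25%, against 0.0365% of all), Herpud1 and Dnajb11. The core was in Hspa5 and Vcp (6.25%, against 2.01% of all). A C/EBP-ATF match was present in 1 of the 32 windows, that of Herpud1 (3.12%, against 1.77% of all). No matches overlapped in these windows. A match is a run of letters and not a measured binding site. Since the genes were listed as members of a response known to act through ERSE, its share among them is no new result.

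**Figure D1:**
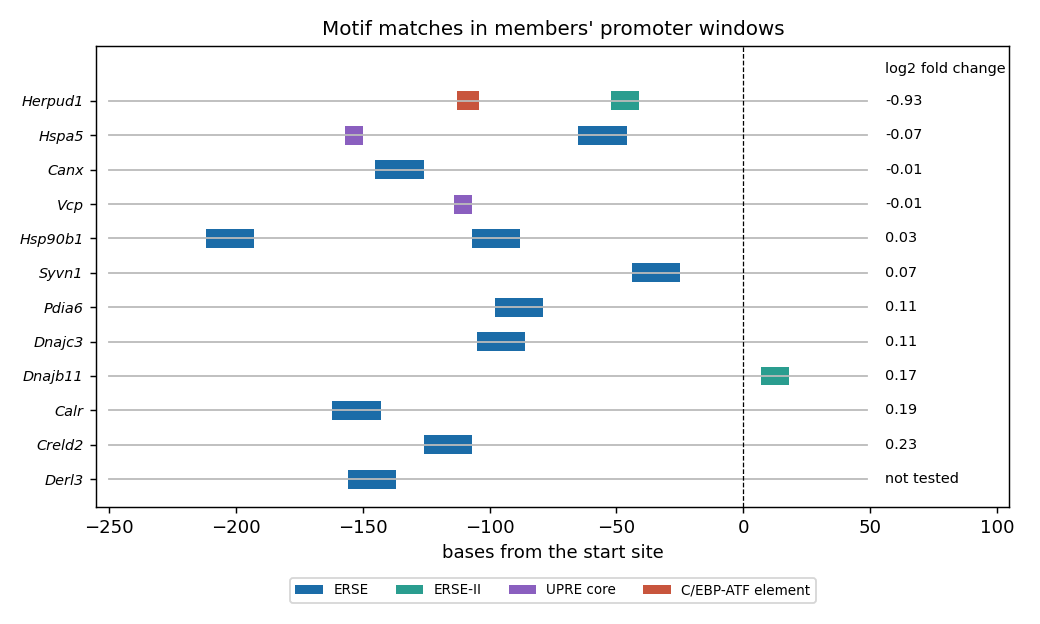
Motif matches in the promoter windows of the 12 genes with any match, by bases from the start site (dashed line at 0), with each gene's log2 fold change (RGX-104 over control) at the right. Herpud1 (-0.93) carries both an ERSE-II match and the C/EBP-ATF match, and the other ERSE-II row is Dnajb11 (0.17). The ERSE rows that were tested run from -0.074 (Hspa5) to 0.23 (Creld2). A C/EBP-ATF match was in 1.77% of all windows, and whether any match bears on these changes was not tested.

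Of the 11 genes with ERSE or ERSE-II in the window, 1 was higher (Calr), 1 was lower (Herpud1), 8 were not called and Derl3 was not tested. Of all genes tested, 0.888% were called higher and 1.78% lower. In the same fit, Atf4 was at 466 ± 25.1 CPM in RGX-104 and 717 ± 56.6 CPM in control libraries (log2 fold change -0.62, edgeR adjusted p = 1.50e-07). Ddit3, which encodes the ATF4-induced factor CHOP, was at 16.7 ± 2.72 CPM in RGX-104 and 65.2 ± 3.22 CPM in control libraries. Eif2ak3, the gene of PERK, was at 7.54 ± 2.75 CPM in RGX-104 and 8.58 ± 2.24 CPM in control libraries and was not called (log2 fold change -0.18, 95% interval -0.70 to 0.33). Whether the lower Atf4 accounts for the lower Herpud1 was not tested.

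Herpud1 was lower relative to Hspa5 and Sel1l in the same libraries, a comparison that needs no scaling but reuses the Herpud1 reads above. Its reads came to 2.62, 2.94, 2.97 and 2.69% of those of Hspa5 in RGX-104 replicates 5 to 8, against 4.51, 5.25, 5.36 and 5.17% in control replicates 1 to 4. Relative to Sel1l, they came to 65.5 to 74.4% in RGX-104 and 93.8 to 122% in control libraries. Neither ratio overlapped between the groups. No test is given, since both ratios were chosen with the result known.

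Sel1l, the adaptor that holds the ligase complex together, was the other degradation gene to fall. It lies on the reverse strand of chromosome 12, 91806043 to 91849157. It had 78.1, 89.4, 84.6 and 75.1 CPM in RGX-104 replicates 5 to 8, against 103.7, 106.5, 97.0 and 91.3 CPM in control replicates 1 to 4. All RGX-104 libraries lay below all control libraries, though RGX-104 replicate 6 and control replicate 4 were close. The log2 fold change was -0.28 ± 0.08 (SE; edgeR adjusted p = 0.0471), just under the threshold, and limma-voom gave an adjusted p of 0.0525. It ceased to be called without control replicate 1, 2 or 3 or without RGX-104 replicate 5, 7 or 8 (adjusted p up to 0.174).

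Syvn1 encodes HRD1, the ubiquitin ligase that SEL1L and HERP serve. It was at 21.9 ± 4.07 CPM in RGX-104 and 20.9 ± 5.28 CPM in control libraries, with a log2 fold change of 0.070 and a 95% interval of -0.29 to 0.43. Herpud2, the paralog of Herpud1, was at 19.7 ± 3.91 CPM in RGX-104 and 20.8 ± 1.01 CPM in control libraries (log2 fold change -0.077, 95% interval -0.39 to 0.23). Neither was called, and their intervals did not reach the fold change of Herpud1.

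The Edem genes and Os9, which act in selecting glycoproteins for removal, were not called. Edem3 was at 24.3 ± 1.87 CPM in RGX-104 and 19.3 ± 2.61 CPM in control libraries, without overlap (log2 fold change 0.33, edgeR adjusted p = 0.262). Edem1 had a log2 fold change of -0.022 (95% interval -0.18 to 0.14), Edem2 one of -0.011 (-0.33 to 0.31), and the lectin gene Os9 one of 0.050 (-0.15 to 0.25). Vcp, the ATPase that pulls proteins out of the membrane, was at 1059 ± 26.7 CPM in RGX-104 and 1067 ± 11.7 CPM in control libraries (95% interval -0.094 to 0.071). Exons of Vcp overlap those of 1700022I11Rik on the opposite strand over 352 bp.

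Derl1, a derlin of the retrotranslocation complex, had a log2 fold change of -0.10 (95% interval -0.27 to 0.058), and Selenos, a selenoprotein that binds derlins and VCP, one of -0.11 (-0.25 to 0.030). Sec61b, a subunit of the channel through which proteins enter the ER, had one of 0.11 (-0.036 to 0.26). Derl2 had between 2 and 18 counts per library, and its log2 fold change of 1.21 had an interval of -0.073 to 2.49. Its symbol recurs in the table with a number appended, and adding repeated symbols together left the value at 1.21. With so few counts, and with exons that overlap those of Mis12 on the opposite strand over 231 bp, that value is uncertain. The summed CPM of the 14 degradation and translocation genes was 1792 to 1871 in RGX-104 and 1904 to 1925 in control libraries. Without Herpud1 the sums were 1740 to 1816 in RGX-104 and 1792 to 1823 in control libraries and overlapped.

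**Figure D2:**
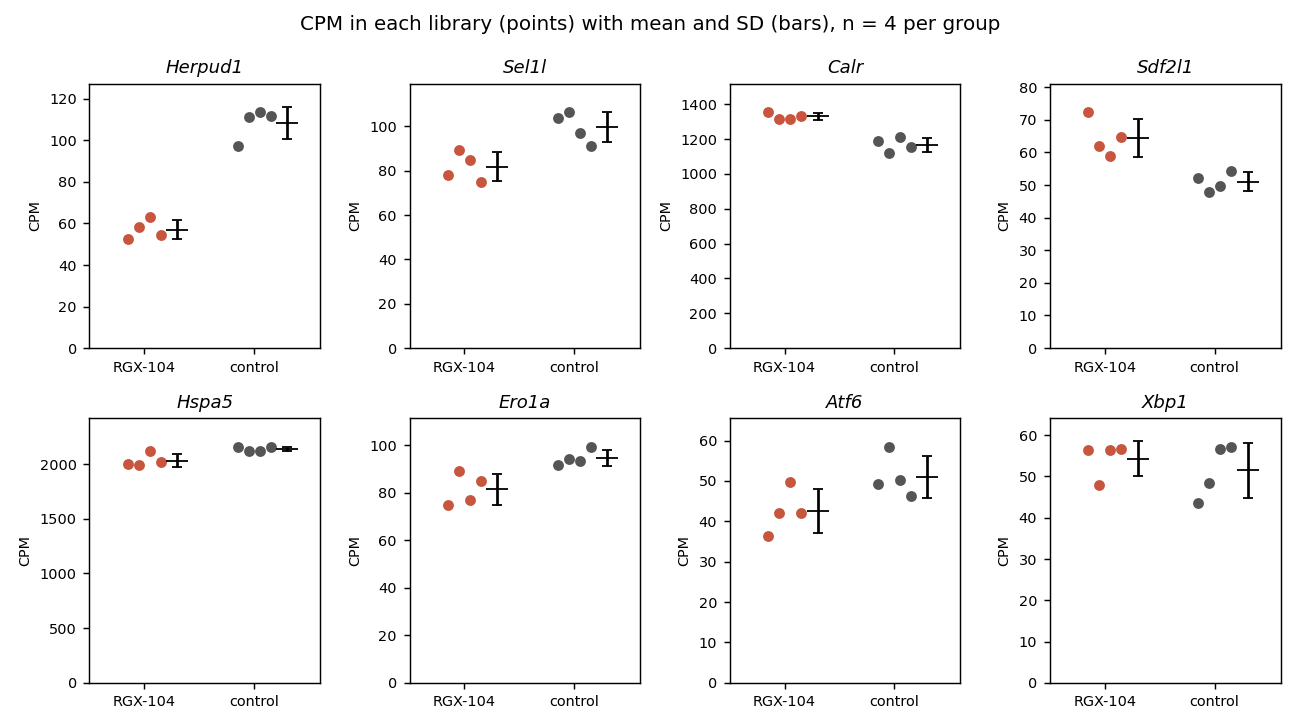
CPM of 8 genes in each library (points), with mean and SD beside them, RGX-104 left and control right, n = 4 per group and each axis starting at 0. Herpud1 lies at 52.3 to 62.9 CPM in RGX-104 and 97.2 to 114 CPM in control libraries, while Atf6 and Xbp1 overlap between the groups.

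Of the 12 chaperone and co-chaperone genes, 2 rose and none fell by edgeR, 4 had an unadjusted p under 0.05, and the median log2 fold change was 0.065. Of all 12162 genes tested, 0.888% were called higher, 1.78% were called lower and 1679 had an unadjusted p under 0.05. Hspa5, which encodes BiP, the chaperone that also holds the sensors inactive, lies on chromosome 2, 34772090 to 34776529. It had 1998, 1988, 2121 and 2021 CPM in RGX-104 replicates 5 to 8, against 2155, 2123, 2122 and 2158 CPM in control replicates 1 to 4. The RGX-104 libraries lay below the control libraries, replicate 7 by about 1 CPM. The log2 fold change was -0.074 ± 0.036 (SE; edgeR adjusted p = 0.373), with a 95% interval of -0.15 to 0.0014.

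Calr encodes calreticulin, which binds calcium and folds glycoproteins, and was among the genes that rose. It lies on the reverse strand of chromosome 8, 84842088 to 84846931. It had 1356, 1313, 1316 and 1335 CPM in RGX-104 replicates 5 to 8, against 1188, 1119, 1213 and 1153 CPM in control replicates 1 to 4. The lowest RGX-104 library lay above the highest control library, and the difference was small: a log2 fold change of 0.19 ± 0.04 (SE; edgeR adjusted p = 0.00954), or 1.14-fold. Canx, the membrane-bound counterpart calnexin, was at 741 ± 31.0 CPM in RGX-104 and 749 ± 18.8 CPM in control libraries and was not called, with a 95% interval of -0.11 to 0.078.

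Sdf2l1, which joins the ERdj3 co-chaperone complex and keeps proteins from clumping, was the other chaperone gene to rise. It lies on the reverse strand of chromosome 16, 17130138 to 17132383. It had 72.4, 61.8, 59.0 and 64.7 CPM in RGX-104 replicates 5 to 8, against 52.0, 47.9, 49.6 and 54.4 CPM in control replicates 1 to 4. The groups did not overlap, and RGX-104 replicate 5 was the highest. The log2 fold change was 0.34 ± 0.09 (SE; edgeR adjusted p = 0.0393). It was not called without control replicate 1, 2 or 3, without RGX-104 replicate 5, 6 or 8 (adjusted p up to 0.136), or without the filter on low counts (adjusted p = 0.0506).

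Its partner Dnajb11 (ERdj3) was at 128 ± 10.7 CPM in RGX-104 and 114 ± 6.48 CPM in control libraries (log2 fold change 0.17, 95% interval 0.020 to 0.31, edgeR adjusted p = 0.282). Creld2, an ER stress-induced gene for a secreted protein, was at 46.4 ± 2.95 CPM in RGX-104 and 39.7 ± 4.98 CPM in control libraries (log2 fold change 0.23, edgeR adjusted p = 0.341). Both had an unadjusted p under 0.05 and neither passed the correction over all genes. Manf, another secreted ER stress protein, had a log2 fold change of 0.087 (95% interval -0.039 to 0.21). Its exons overlap those of Dcaf1 over 146 bp and of 4930524O07Rik over 166 bp, both on the opposite strand.

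Hsp90b1, the ER member of the HSP90 family, was at 1203 ± 109 CPM in RGX-104 and 1183 ± 69.0 CPM in control libraries. Its 95% interval was -0.091 to 0.14. Its exons overlap those of 1810014B01Rik on the opposite strand over 415 bp and of Gm25745 on the same strand over 133 bp. Hyou1, a nucleotide exchange factor for BiP, had 53.9, 45.1, 67.5 and 44.3 CPM in RGX-104 replicates 5 to 8, against 53.4, 55.2, 50.3 and 51.4 CPM in control replicates 1 to 4. Its means were 52.7 CPM in RGX-104 and 52.6 CPM in control libraries, but RGX-104 replicate 7 was above and replicates 6 and 8 below every control library. The J proteins Dnajc3 and Dnajc10, which bring clients to BiP, had log2 fold changes of 0.11 (95% interval -0.0072 to 0.23) and 0.043 (-0.13 to 0.22). Dnajb9, a J protein that restrains IRE1, was at 4.34 ± 0.919 CPM in RGX-104 and 5.81 ± 0.743 CPM in control libraries, and its interval of -0.95 to 0.11 was wide. The summed CPM of the 12 chaperone genes was 5951 to 6277 in RGX-104 and 5958 to 6086 in control libraries.

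No gene for forming disulfide bonds was called by edgeR, and 3 of 5 (Pdia3, P4hb and Ero1a) had an unadjusted p under 0.05. Of all 12162 genes tested, 1679 had one. P4hb, the gene of protein disulfide isomerase, was at 263 ± 7.5 CPM in RGX-104 and 241 ± 6.61 CPM in control libraries (log2 fold change 0.13, edgeR adjusted p = 0.250). Pdia3, which works with calreticulin and calnexin, was at 544 ± 20.0 CPM in RGX-104 and 496 ± 21.5 CPM in control libraries (log2 fold change 0.13, edgeR adjusted p = 0.188). Neither gene overlapped between the groups. Pdia6 had a log2 fold change of 0.11 (95% interval -0.00011 to 0.21) and Pdia4 one of 0.018 (-0.12 to 0.15). The summed CPM of these 4 isomerases was 1286 to 1373 in RGX-104 and 1209 to 1269 in control libraries.

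Ero1a, the oxidase that recharges protein disulfide isomerase and a gene that CHOP is known to induce, went the other way from the isomerases without being called. It had 74.9, 89.1, 76.9 and 85.0 CPM in RGX-104 replicates 5 to 8, against 91.7, 94.2, 93.3 and 99.4 CPM in control replicates 1 to 4. The groups did not overlap. The log2 fold change was -0.22 ± 0.07 (SE; edgeR adjusted p = 0.157), with a 95% interval of -0.37 to -0.063.

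None of the 3 tested genes of sensors and transcription factors (Atf6, Xbp1 and Ern1) was called by edgeR. Of these 3, 1 (Atf6) had an unadjusted p under 0.05. Of all 12162 genes tested, 1679 had one. Atf6 had 36.4, 42.1, 49.8 and 42.1 CPM in RGX-104 replicates 5 to 8, against 49.2, 58.5, 50.2 and 46.2 CPM in control replicates 1 to 4. RGX-104 replicate 7 lay within the control range and the other RGX-104 libraries below it (log2 fold change -0.26 ± 0.11, SE; edgeR adjusted p = 0.261; 95% interval -0.48 to -0.039). Xbp1 had 56.3, 48.0, 56.4 and 56.5 CPM in RGX-104 replicates 5 to 8, against 43.7, 48.4, 56.6 and 57.2 CPM in control replicates 1 to 4. Its groups overlapped almost wholly (log2 fold change 0.078, 95% interval -0.13 to 0.29). Ern1 had 3.16, 4.38, 3.88 and 3.28 CPM in RGX-104 replicates 5 to 8, against 2.91, 1.28, 3.28 and 3.37 CPM in control replicates 1 to 4. At 19 to 63 counts per library its 95% interval of -0.27 to 1.14 included both a lower and a much higher level.

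**Figure D3:**
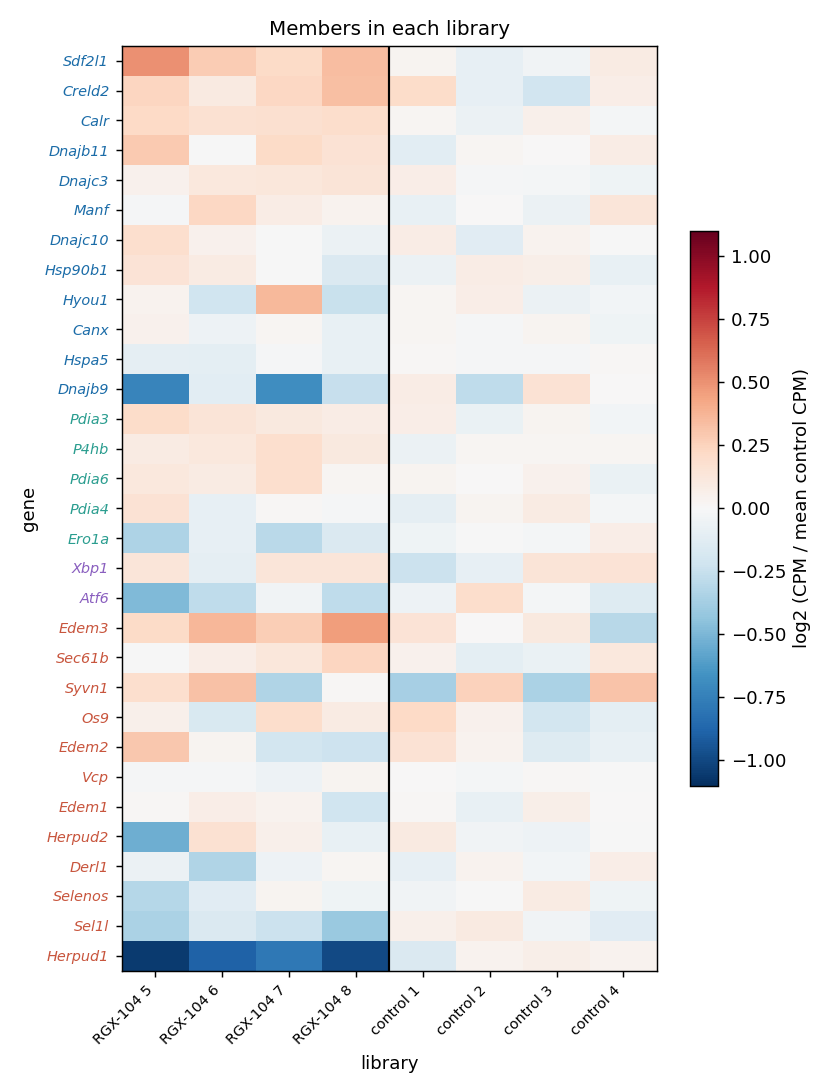
Level of each gene in each library as log2 of CPM over the mean control CPM (colour), RGX-104 libraries left of the line and control libraries right. Gene names are coloured by role as in the plot of log2 fold changes, and Ern1 and Derl2, the tested genes with the fewest counts, are left out. Herpud1 is the row that is dark blue in all 4 RGX-104 libraries.

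Counted over all roles, 5 of the 33 tested genes had every RGX-104 library above every control library (Calr, Sdf2l1, Pdia3, P4hb and Edem3), where 3.88% of all genes tested did. Another 4 had every RGX-104 library below (Herpud1, Sel1l, Hspa5 and Ero1a), where 4.32% of all genes tested did. Of the 29 genes not called, 25 had a 95% interval within 0.5 of 0 on the log2 scale, so for those a change as large as that of Herpud1 lay outside the interval. The other 4 were Dnajb9, Ern1, Edem3 and Derl2. Each library was the highest of its group for between 5 and 11 of the 33 genes. RGX-104 replicate 5 was the lowest of its group for 13 genes and replicate 7 for 3, and the control libraries were the lowest of theirs for between 6 and 10. The median coefficient of variation of the 33 genes was 8.22% in RGX-104 and 5.66% in control libraries. Hyou1 had 20.5% in RGX-104 and 4.09% in control libraries.

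**Figure D4:**
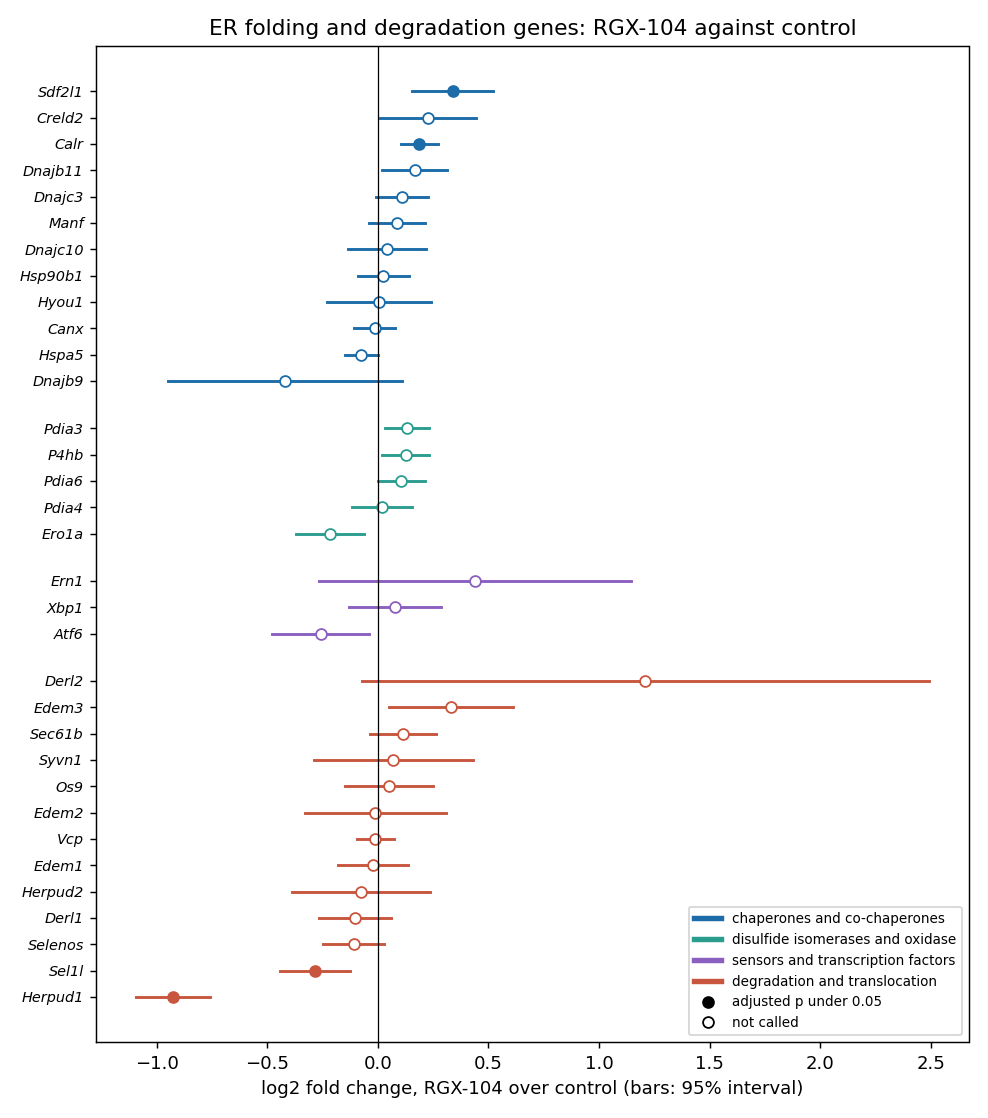
Log2 fold change (RGX-104 over control, x axis) of the 33 tested genes with 95% intervals as bars, coloured by role; filled points have an edgeR adjusted p under 0.05. The filled points are Sdf2l1 (0.34), Calr (0.19), Sel1l (-0.28) and Herpud1 (-0.93).

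The wider pathway was read from a list of 90 further genes, of which 86 were in the table and 78 were tested. Of these, 3 were higher and 3 lower by edgeR, where 0.888% of all genes tested were called higher and 1.78% lower. The called genes are named here after their values were seen. The higher genes were Mogs, the glucosidase that starts glycan trimming (log2 fold change 0.23), Erp44, which retains unassembled proteins (0.37), and Rpn1, a subunit of the glycan-transferring complex (0.19). The lower genes were Atf4, Ddit3 and the rhomboid protease gene Rhbdd1 (log2 fold change -0.66, edgeR adjusted p = 0.0245). Rhbdd1 was at 15.4 ± 2.93 CPM in RGX-104 and 24.4 ± 4.16 CPM in control libraries. Among 28 tested translocon and signal peptide genes 24 had a positive log2 fold change, with a median of 0.088, against 6152 of 12162 genes tested and a median of 0.0028. Of those 28 genes 1, Rpn1, was called. Of the 21 other degradation genes tested, 14 had a positive log2 fold change, with a median of 0.044. Of the 20 other folding genes tested, 13 had a positive one, with a median of 0.055. The 9 other sensor-side genes tested, Atf4 and Ddit3 among them, went the other way: 3 were positive and 6 negative, with a median of -0.18.

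Some markers of the sorted cells differed between the groups. Of 10 listed CD8 T cell markers 9 were in the table, and 4 (Cd8a, Cd8b1, Lat and Thy1) were called higher by edgeR. Of all genes tested, 0.888% were. Cd3e, Cd3d, Cd3g, Lck and Cd5 were not called, with log2 fold changes from 0.010 (Cd5) to 0.40 (Cd3g). The summed CPM of the 9 was 2125 to 2190 in RGX-104 and 1793 to 1829 in control libraries. The 14 dendritic cell markers summed to 575 to 676 CPM in RGX-104 and 586 to 655 CPM in control libraries, most of it Ccr7, which T cells also express. H2-Aa, H2-Ab1 and H2-Eb1 were listed at 0 in all libraries, as Atf6b was, and this was not read as absence of dendritic cell RNA. The 10 macrophage and monocyte markers summed to 48.0 to 58.8 CPM in RGX-104 and 46.0 to 52.2 CPM in control libraries. The 7 B and plasma cell markers in the table, with Cd79a listed at 0, summed to 8.00 to 12.4 CPM in RGX-104 and 6.12 to 10.3 CPM in control libraries. No marker of these 3 lists was called by edgeR. Of the 9 dendritic cell markers tested, 3 had an unadjusted p under 0.05, all lower: Batf3 (0.814-fold), Ccl22 (0.441-fold) and Fscn1 (0.561-fold). Of all 12162 genes tested, 1679 had one. The log2 fold change was negative for 6 of the 9 and positive for 3, with a median of -0.30. Of the 7 macrophage and monocyte and 3 B and plasma cell markers tested, none had an unadjusted p under 0.05. The part of any of these cells in the values above was not tested.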

How the data were processed

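RNA of 8 samples of sorted OT-I CD8+ T cells was read with a Lexogen 3′ FWD kit, per the labels' protocols, so counts come from transcript ends. The authors deposited whole-number read counts per gene, without normalization. Per the submitters' processing notes, STAR 2.7.8a, R 4.1.0, DESeq2 1.4 and GRCm38 were used. How reads were assigned to genes, whether by strand, and whether with molecular identifiers was not given in the sources used here. Standard errors, intervals and p-values rest on the spread between libraries.

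Here counts were tested with edgeR 4.0.16 (filterByExpr, TMM, glmQLFit, glmQLFTest with group as the only term, two-sided) across all 12162 genes that passed the filter, with Benjamini-Hochberg adjustment over all of them. The standard error is the log2 fold change divided by the root of F, and 95% intervals use it. The test was tried on simulated data, where it recovered most changes in well-counted genes and missed most in genes with few counts; its pass mark was restricted to well-counted genes after a mark over all genes was missed. Alternatives were RLE scaling, no filter, robust estimation, DESeq2 1.42.0, limma-voom (limma 3.58.1), adding together repeated symbols, and leaving out each library. Columns of other series numbered 0. No replicate number occurs in both groups, which leaves pairing unknown, and libraries were treated as unpaired.

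Values in every library are given for the called members and for the genes of sensors and transcription factors. They are also given for a few more members (Hspa5, Hyou1 and Ero1a) picked after their values were seen. Every member was named, and other pathway genes were counted from lists. The genes, the lists and the motifs were chosen with earlier results of these data known. Promoter sequences and coordinates are from RefSeq (GRCm38.p6), and exon overlaps from GENCODE M21.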

Additional observations from a re-analysis of the deposited data

Results flagged for a closer look

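In 3 of 66 groups of 4 libraries (33 genes in RGX-104 and in control), 1 library lay far from the other 3, which chance gives in about 1 group in 20. Xbp1 was at 48.0 CPM in RGX-104 replicate 6, where the other RGX-104 libraries were at 56.3 to 56.5. Herpud1 was at 97.2 CPM in control replicate 1, the other control libraries being at 111 to 114. P4hb was at 231 CPM in the same control library, the others being at 245. In P4hb and Herpud1 the groups did not overlap, and in Xbp1 they did.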

How the results depend on the processing

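Herpud1 stayed lower (adjusted p under 0.05) in all 14 alternatives, at -0.98 to -0.89 on the log2 scale, and Calr stayed higher in all 14. Sdf2l1 was called in 7 and Sel1l in 6 of the 14. The count of members called higher was 1 without the filter on low counts and 1 to 2 with each library left out, against 2. The count called lower was 1 without the filter, 1 by limma-voom and 1 to 2 with each library left out, against 2. Over all genes, DESeq2 called 192 higher, and leaving out each library gave 57 to 93, against 108. Over the members, 462 alternative values comprised 424 with direction and call kept, 15 with the call lost and 23 with the sign turned, all in 11 members that were not called. Hyou1 was at -0.0094 by limma-voom. With each library left out, log2 fold changes ran from -0.018 to 0.081 for Hsp90b1, -0.14 to 0.079 for Hyou1, -0.036 to 0.0066 for Canx, -0.0051 to 0.077 for Dnajc10, -0.030 to 0.053 for Pdia4, -0.17 to 0.051 for Herpud2, -0.033 to 0.19 for Syvn1, -0.054 to 0.039 for Edem1, -0.13 to 0.055 for Edem2, -0.011 to 0.13 for Os9, and -0.026 to 0.0036 for Vcp. The cause of these moves was not tested. Replicate numbers run from 1 to 4 in control and 5 to 8 in RGX-104 and do not show whether libraries were paired. No paired analysis was made. Depth limits Derl2, Derl3, Ern1 and Dnajb9, each with at most 103 counts in any library.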
